A study of Mus musculus with 26 samples.

Results

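Fibroblasts without the Prrx1 lineage mark (PNF) were compared between the embryonic stages E18.5, shortly before birth, and E16.5 in the ventral skin of mice. The comparison used 6 of the 24 bulk RNA-seq libraries of the study, chosen by label alone: 2 at E16.5 (A and B) and 4 at E18.5 (A, B, C and D). All groups carry the strain label Prrx-Cre, a line in which control DNA of the homeobox gene Prrx1 drives the recombinase Cre in mesenchyme of the limb bud and of part of the head. Skin was dissociated with collagenase and fibroblasts were sorted by FACS, either as PNF or as Prrx1-positive fibroblasts (PPF), of which 2 libraries at each of the same ages serve here for comparison. Levels in 4 PNF libraries of postnatal day 1 (P1) are given beside them. No treatment or wound is labelled for these groups, and the reporter and sort gate are not given in the sources used here. The labels do not say whether a library is 1 fetus, a litter or a pool, so p-values measure only the spread between these libraries, which may be technical.

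In the days before birth the dermis turns from a cell-rich tissue into one filled with collagen and elastic fibres. Its upper (papillary) fibroblasts receive Wnt and Hedgehog signals from the epidermis and from growing hair follicles, while deeper fibroblasts build reticular dermis, fascia and fat. Fetal mouse skin is also known to lose its ability to heal without a scar around this time. Immediate early genes, which encode short-lived transcription factors and feedback inhibitors, respond within minutes to growth factors, to stress and to tissue dissociation itself.

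Libraries held 5608499 to 9008266 counts in genes. Levels are given as CPM, counts relative to the library's total, scaled by TMM, which evens out libraries of different RNA makeup. On this scale 3 counts, taken as the floor of detection, correspond to 0.283 to 0.664 CPM. These floors cover counting error only, since the amplified cDNA carries no molecular identifiers. E18.5 A stood apart: it had counts in 11765 genes, against 15669 to 18267 in the other 5 libraries, and its log2(CPM + 1) values correlated with theirs across genes at r = 0.771 to 0.789, against 0.908 to 0.979 among the other 5. The pairs E16.5 A and B and E18.5 C and D were each alike at r = 0.979. They still differed by more than sampling noise, at 13.6 and 10.1 units of chi-square per gene where noise alone gives about 1, and were counted as separate libraries. Xist, which silences the second X chromosome of females, stood at 498 CPM in E18.5 A with the Y-linked Ddx3y at 1.11 CPM. In E18.5 B the pair stood at 0 and 180 CPM, and in the other 4 libraries both were detected, at 14.8 to 36.3 and 95 to 147 CPM.

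The label fibroblast was checked against a list of 15 fibroblast genes, 13 of which passed the filter on low counts. The list took 0.692% and 0.677% of counts in E16.5 A and B, and 0.63%, 1.91%, 1.46% and 1.58% in E18.5 A to D. The groups overlapped through E18.5 A (exact permutation test over libraries, two-sided, p = 0.333, where the smallest p of 2 against 4 is 0.0667). Lum, Dcn and Dpt, proteoglycans and matrix proteins of dermal fibroblasts, were detected in all 6 libraries, as was Pdgfra at 4.82 to 9.3 CPM. Vim and S100a4 had 1 and 0 counts over the 6 libraries. Reads were counted per transcript by the authors, and a gene that fibroblasts use can be listed near 0 in such a table, so a level of 0 is not read here as silence.

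RNA of other cell types was present in every library and was uneven at E18.5. Erythroid genes, the haemoglobins and their partners, took 4.53% and 4.73% of counts at E16.5 and 43.5%, 0.229%, 2.95% and 2.81% in E18.5 A to D. Mesothelial genes took 0.606% in E18.5 A and at most 0.0278% elsewhere. Keratinocyte genes marked E18.5 C and D: the suprabasal list took 1.38% and 1.43% there, 0.469% and 0.388% at E16.5, and 0.0212% and 0.0145% in E18.5 A and B. All 12 lists of other cell types together took 6.61% and 6.25% at E16.5 and 45.5%, 0.543%, 5.53% and 5.45% in E18.5 A to D (difference of means 7.84 percentage points, exact permutation test, p = 1). Without E18.5 A the difference was -2.59. Mast cell genes stood at 0.855% and 0.569% at E16.5 and at 0.584%, 0.0656%, 0.211% and 0.289% at E18.5 (exact permutation test, p = 0.2). In bulk RNA, fewer cells of a type and less RNA per cell cannot be told apart.

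**Figure D1:**
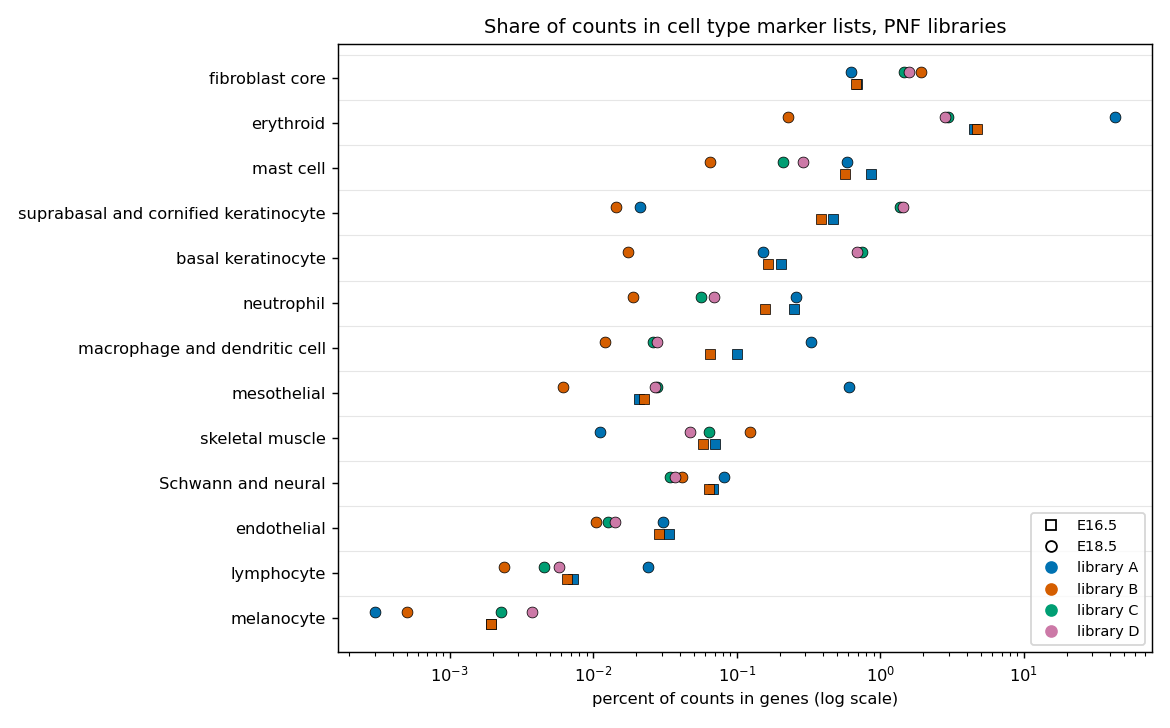
Share of counts (percent, log axis) taken by the fibroblast list and by each list of markers of another cell type, 1 point per PNF library, squares for E16.5 and circles for E18.5. The erythroid share reaches 43.5% in E18.5 A and is 0.229% in E18.5 B, and the keratinocyte lists are highest in E18.5 C and D.

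Cartilage and tendon genes split the E18.5 libraries as well. The 19 tested members summed to 6837 and 5362 CPM at E16.5 and to 1185, 16518, 563 and 495 CPM in E18.5 A to D. Acan, the large proteoglycan of cartilage, stood at 814 and 614 CPM at E16.5 and at 127, 1310, 4.91 and 4.28 CPM at E18.5. Matn1, a matrilin of cartilage, stood at 541 and 387 CPM at E16.5, at 117 and 330 CPM in E18.5 A and B, and had no count in C and D. The part of these other tissues in the gene differences that follow was not tested, and their values are given beside the genes they touch.

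Of 15557 genes tested, edgeR's quasi-likelihood test called 0 between E18.5 and E16.5 at an adjusted p of 0.05 (0% in each direction), and the smallest adjusted p was 1. At an unadjusted p under 0.05, 124 genes were higher (0.797%) and 207 lower (1.33%) at E18.5. DESeq2 called 11 genes, 10 higher (0.0643%) and 1 lower (0.00643%), 9 of them with no count in one of the groups. limma voom with sample quality weights called 2349, 857 higher (5.51%) and 1492 lower (9.59%), of which 10 were also called by DESeq2. The number of genes past a threshold therefore depends on the tool, and no gene was called by the main test of the ages. What follows describes levels by library. A gene is described as separated when all 4 E18.5 libraries lay above, or all below, both E16.5 libraries: 1169 genes lay above (7.51%) and 1967 below (12.6%). Without E18.5 A these numbers were 2468 (15.9%) and 2819 (18.1%).

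Genes of position and of the body wall were led by Tbx5, the T-box factor that marks forelimb and upper trunk mesenchyme (chromosome 5, 119832668 to 119885219, plus strand, mm10). It stood at 2.85 and 0.406 CPM in E16.5 A and B and at 59.1, 23.1, 22.9 and 22.6 CPM in E18.5 A to D. Libraries B, C and D agreed closely and all 4 later libraries lay far above the earlier pair, with means 19.6-fold apart. Its log2 difference was 4.27 ± 0.991 (SE; edgeR, unadjusted p = 0.000311, adjusted p = 1; DESeq2, adjusted p = 5.73e-05). Osr2, a zinc finger factor of limb, palate and body wall mesenchyme, was the tightest of the group, at 87.3 and 83.7 CPM at E16.5 and 254, 260, 289 and 262 CPM at E18.5 (log2 difference 1.64 ± 0.611). Vax2, a homeobox factor best known from the ventral eye, stood at 3.51 and 0.948 CPM and then at 12.2, 9.44, 11.1 and 14.8 CPM. Twist2, a bHLH factor of dermal precursors, stood at 209 and 189 CPM and then at 210, 308, 361 and 321 CPM, with E18.5 A just above the earlier pair.

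Of the 30 tested positional factors, 7 were separated above (23.3%, against 7.51% of all genes) and 1 below (3.33%, against 12.6%). Without E18.5 A the numbers were 8 (26.7%, against 15.9%) and 2 (6.67%, against 18.1%). With all libraries, the other members above were Tbx15, Tbx18 and Twist1, and Zic1 was the member below. The median log2 difference of the list was 0.36, against 0.08 over all tested genes, and fell to 0.16 without E18.5 A. Among 21 anterior HOX genes 3 were separated above (14.3%) and 0 below, and without E18.5 A 9 lay above (42.9%, against 15.9% of all genes). Among 13 posterior ones 1 was above (7.69%), which is close to the background share, and 3 without E18.5 A (23.1%), with a median difference of 1.31. Their summed level stood at 35.9 and 40.4 CPM at E16.5 and at 213, 68.6, 70.6 and 84.5 CPM at E18.5.

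Hedgehog pathway genes had the second largest share separated above among the lists that are not of other cell types. Hedgehog ligands release the receptor Ptch1's hold on Smo, and Gli factors then switch on targets that include Gli1, Ptch1 and Hhip themselves. Gli1 stood at 16.6 and 19 CPM at E16.5 and at 53.1, 38.4, 64.7 and 61 CPM at E18.5 (log2 difference 1.61 ± 0.961). Ptch1 stood at 7.89 and 4.74 CPM and then at 14.6, 8.69, 43.7 and 44.5 CPM, so that E18.5 A and B lay just above the earlier pair and C and D far above it. Hhip, a decoy receptor, stood at 16.1 and 18.4 CPM and then at 92.6, 29.1, 68 and 66.2 CPM. In all, 5 of 11 tested members were separated above (45.5%, against 7.51% of all genes) and 0 below (against 12.6%). Without E18.5 A 6 members lay above (54.5%, against 15.9%) and 0 below (against 18.1%). The median log2 difference of the list was 1.27. The ligand Shh, made by hair follicle epithelium, stood at 0.657 and 1.35 CPM at E16.5, at 0 and 0.449 CPM in E18.5 A and B, and at 118 and 98.2 CPM in C and D, the libraries with the high keratinocyte shares. In E18.5 A and B, where Shh was not above its E16.5 levels, Gli1 stood at 53.1 and 38.4 CPM and Hhip at 92.6 and 29.1 CPM. In E18.5 B these levels were only modestly above those of E16.5. The part of Shh and of keratinocyte RNA in the levels of the Hedgehog genes was not tested.

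The Wnt pathway list had 11 of 33 tested members separated above (33.3%, against 7.51% of all genes) and 1 below (3.03%, against 12.6%). Without E18.5 A the numbers were 12 (36.4%, against 15.9%) and 1 (3.03%, against 18.1%). Apcdd1, a membrane inhibitor of Wnt signalling that is itself a Wnt target (chromosome 18, 62922231 to 62961179, plus strand), stood at 65.3 and 53.1 CPM at E16.5 and at 251, 98.9, 212 and 218 CPM at E18.5. Its log2 difference was 1.72 ± 0.532 (edgeR, unadjusted p = 0.00394, adjusted p = 1). Wif1, a secreted Wnt trap, stood at 121 and 116 CPM and then at 229, 374, 323 and 287 CPM. Nkd1, a cytoplasmic feedback inhibitor of the pathway, stood at 23.3 and 23.4 CPM and then at 42.3, 34.2, 45.7 and 50.8 CPM, and Dkk3 lay at 115 and 101 CPM and then between 165 and 227 CPM. The single member below was Dkk2, a secreted inhibitor of Wnt co-receptors, at 41 and 53.1 CPM and then at 11.1, 30.9, 16.8 and 14.9 CPM. The other members above were Ctnnb1, Dkk1, Lrp5, Rspo1, Fzd1, Fzd2 and Fzd4. Inhibitors and receptors of the pathway were thus among the separated genes, in both directions for the Dkk family.

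The papillary and dermal papilla list shared Apcdd1, Wif1 and Rspo1 with the Wnt list. It had 7 of 17 tested members above (41.2%, against 7.51% of all genes) and 1 below (5.88%, against 12.6%). Sox18, a factor of dermal papilla and vessels, stood at 32.1 and 31.4 CPM at E16.5 and at 107, 34.6, 116 and 140 CPM at E18.5. Crabp1, a retinoic acid binding protein of papillary fibroblasts, lay the other way, at 1255 and 1192 CPM and then at 376, 879, 503 and 524 CPM (log2 difference -1.10 ± 0.608). The reticular, fascia and universal fibroblast list had 3 of 21 members above (14.3%) and 1 below (4.76%), and without E18.5 A 10 above (47.6%) and 3 below (14.3%). The adipogenic list had 0 of 23 above and 1 below (4.35%), and without E18.5 A 12 above (52.2%) and 1 below. The count of 0 thus rests on E18.5 A. Without that library the papillary list had 9 above (52.9%) and 3 below (17.6%), and all genes 15.9% and 18.1%.

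BMP, FGF and PDGF genes were split between the directions. Sostdc1, a secreted inhibitor of BMP and Wnt that marks follicle mesenchyme, stood at 99 and 96 CPM at E16.5 and at 245, 125, 296 and 279 CPM at E18.5. Id2, a helix-loop-helix inhibitor that BMP signals switch on, lay the other way, at 1133 and 1334 CPM and then at 726, 882, 654 and 724 CPM. Of 23 BMP genes 3 were separated above (13%) and 4 below (17.4%). Of 18 FGF and PDGF genes 2 were above (11.1%) and 3 below (16.7%), with 4 above (22.2%) without E18.5 A. Over all tested genes the shares were 7.51% above and 12.6% below, and 15.9% and 18.1% without E18.5 A. Both lists thus lay near the background. Spry2, a feedback inhibitor of FGF receptors, stood at 61.9 and 71.9 CPM and then at 31.9, 48.1, 16.1 and 23 CPM, all 4 below (log2 difference -1.17 ± 0.541). Ccn2, a matricellular protein that TGF-beta and YAP switch on, was also below, at 760 and 696 CPM and then at 136, 601, 106 and 172 CPM. Of 20 TGF-beta genes 3 lay above (15%) and 0 below, and without E18.5 A 4 (20%) and 3 (15%). Tgfbr3, the accessory receptor betaglycan, stood at 41.5 and 52.3 CPM and then at 70.2, 68.9, 131 and 106 CPM.

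The IGF axis had 2 of 16 members above (12.5%, against 7.51% of all genes) and 1 below (6.25%, against 12.6%). Without E18.5 A the numbers were 4 (25%, against 15.9%) and 2 (12.5%, against 18.1%). Igfbp3, which binds IGFs outside the cell, stood at 373 and 308 CPM at E16.5 and at 1745, 418, 1078 and 1077 CPM at E18.5. Irs2, an adaptor of the insulin and IGF receptors, stood at 162 and 161 CPM and then at 659, 220, 226 and 242 CPM. For both genes E18.5 A held the highest level, and the other 3 libraries were still above E16.5. The growth factor Igf2 overlapped, at 102 and 94.2 CPM and then at 65.3, 290, 25.2 and 30.1 CPM.

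The matrix lists differed from one another, and edgeR called none of their members. Of 32 proteoglycans and matricellular proteins 3 were separated above (9.38%, against 7.51% of all genes) and 1 below (3.12%), and without E18.5 A 14 (43.8%, against 15.9%) and 2 (6.25%). Of 17 fibrillar and associated collagens 5 were separated above (29.4%) and 0 below, and without E18.5 A the numbers were 8 (47.1%) and 1 (5.88%). Col1a1, a chain of type I collagen, stood at 1584 and 952 CPM at E16.5 and at 3448, 6760, 2255 and 2588 CPM at E18.5. Col3a1, the type III chain abundant in fetal skin, stood at 950 and 583 CPM and then at 1776, 4447, 2591 and 3397 CPM (log2 difference 1.99 ± 1.16, edgeR, unadjusted p = 0.1). Both were highest in E18.5 B, the library with the lowest share of counts in the lists of other cell types. Those lists do not include tendon and cartilage genes, which were highest in E18.5 B. The tendon and cartilage list summed to 6837 and 5362 CPM at E16.5 and to 1185, 16518, 563 and 495 CPM in E18.5 A to D. Its part in the collagen levels was not tested. Col5a1, which sets fibril diameter, stood at 2189 and 1795 CPM and then at 3479, 5512, 2809 and 2722 CPM. Col6a2, a chain of microfibrillar type VI collagen, stood at 957 and 812 CPM and then at 1326, 2857, 1422 and 1631 CPM. With means 1.82-fold to 3.98-fold apart, these 4 collagens were separated, while the spread among the E18.5 libraries was wide.

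Basement membrane genes had the largest share separated above of all lists tested, 6 of 12 (50%), and 0 below, with a median log2 difference of 1.05. Without E18.5 A 7 members lay above (58.3%) and 0 below. Over all tested genes the shares were 7.51% above and 12.6% below, and 15.9% and 18.1% without E18.5 A. Col4a1 and Col4a2 encode the paired chains of type IV collagen and lie side by side on chromosome 8. Col4a2 stood at 384 and 355 CPM at E16.5 and at 1053, 736, 579 and 692 CPM at E18.5 (log2 difference 1.05 ± 0.405; edgeR, unadjusted p = 0.017, adjusted p = 1). Col4a1 stood at 761 and 660 CPM and then at 1218, 1579, 1405 and 1679 CPM. Nid1, nidogen, which links laminin to type IV collagen, stood at 504 and 498 CPM and then at 693, 1121, 1069 and 1143 CPM. Lamc1, a laminin chain, stood at 82 and 89.2 CPM and then at 138, 164, 284 and 304 CPM. Col4a5 and Col4a6 were the other members above. Endothelium and basal keratinocytes also make basement membrane. The endothelial list summed to 329 and 264 CPM at E16.5 and to 377, 102, 106 and 124 CPM in E18.5 A to D, and the basal keratinocyte list to 1979 and 1529 CPM and then to 1885, 174, 6273 and 6036 CPM. Both lists overlapped between the ages, and their part in the basement membrane levels was not tested.

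Elastic fibre genes had 5 of 14 members above (35.7%) and 0 below, and without E18.5 A 8 (57.1%) and 1 (7.14%). Over all tested genes the shares were 7.51% above and 12.6% below, and 15.9% and 18.1% without E18.5 A. Eln, elastin, stood at 460 and 302 CPM at E16.5 and at 471, 1389, 497 and 736 CPM at E18.5, with E18.5 A close to the earlier pair. Fbln5, which helps elastin assemble, was tighter, at 202 and 184 CPM and then at 457, 482, 336 and 332 CPM. Lox, the enzyme that cross-links collagen and elastin, stood at 250 and 281 CPM and then at 287, 514, 390 and 442 CPM. Matrix proteases and inhibitors had 10 of 24 members above (41.7%) and 3 below (12.5%), and without E18.5 A 12 (50%) and 5 (20.8%). Adamts1, a protease of versican, stood at 137 and 134 CPM and then at 370, 227, 284 and 297 CPM (log2 difference 1.12 ± 0.421; edgeR, unadjusted p = 0.0146). Adamts2, which trims the end of fibrillar procollagens, stood at 133 and 110 CPM and then at 275, 451, 324 and 347 CPM. Timp3, an inhibitor of matrix metalloproteases, stood at 133 and 139 CPM and then at 380, 210, 270 and 248 CPM. Members below were Adamts5, Mmp3 and Mmp13. Collagen processing enzymes had 1 of 17 members above and 1 below (5.88% each), both under the background shares.

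**Figure D2:**
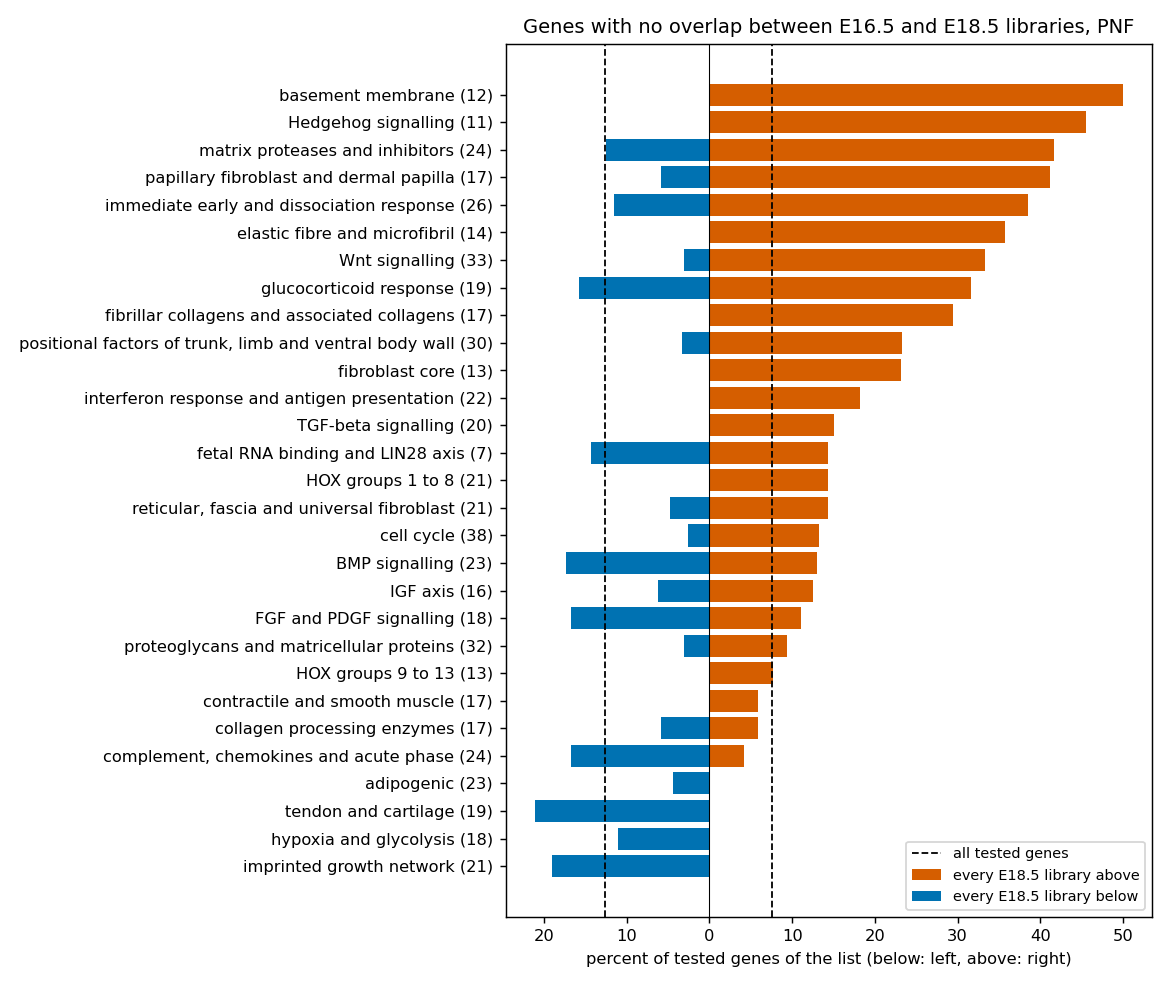
Percent of each list's tested genes (number tested in brackets) with all 4 E18.5 libraries above (right) or below (left) both E16.5 libraries, with dashed lines at the shares of all tested genes, 7.51% and 12.6%. Lists of other cell types are not drawn. Basement membrane (50%) and Hedgehog genes (45.5%) extend farthest to the right, and of the lists drawn, tendon and cartilage (21.1%) and imprinted growth genes (19%) extend farthest to the left.

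The immediate early list had 10 of 26 tested members separated above (38.5%, against 7.51% of all genes) and 3 below (11.5%, against 12.6%). Without E18.5 A the numbers were 11 (42.3%, against 15.9%) and 7 (26.9%, against 18.1%). With all libraries 6 members had an unadjusted p under 0.05 in edgeR, all of them higher. The promoters of a pair of these genes, and of Nfkbia, are shown because each holds a short motif known from the control of the group. They are the 250 bases before the start of the RefSeq transcript (GRCm38.p6), 5′ to 3′ on the gene's strand, with the motif in capitals. In Fos (chr12:85473640-85473889, plus strand) the capitals mark TGACG, the core of the cAMP response element. In Zfp36 (chr7:28379229-28379478, minus strand) they mark a CArG box, bound by serum response factor. In Nfkbia (chr12:55492648-55492897, minus strand) they mark GGAAATTCC, an NF-kB type site.
Fos: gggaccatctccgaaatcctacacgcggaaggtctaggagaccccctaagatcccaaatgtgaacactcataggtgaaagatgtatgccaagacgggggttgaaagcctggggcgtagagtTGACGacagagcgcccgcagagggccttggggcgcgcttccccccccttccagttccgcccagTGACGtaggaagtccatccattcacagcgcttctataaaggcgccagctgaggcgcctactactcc
Zfp36: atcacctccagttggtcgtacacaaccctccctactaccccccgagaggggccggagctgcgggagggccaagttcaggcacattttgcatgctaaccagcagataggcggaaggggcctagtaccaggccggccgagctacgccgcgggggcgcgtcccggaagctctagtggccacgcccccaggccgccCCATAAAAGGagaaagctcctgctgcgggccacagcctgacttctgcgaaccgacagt
Nfkbia: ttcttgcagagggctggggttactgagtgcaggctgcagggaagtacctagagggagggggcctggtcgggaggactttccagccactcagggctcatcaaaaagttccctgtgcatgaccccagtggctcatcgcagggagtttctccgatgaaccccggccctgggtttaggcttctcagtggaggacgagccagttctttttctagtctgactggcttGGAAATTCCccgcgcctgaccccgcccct

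The motifs lie 129 to 125 and 66 to 62 bases before the start in Fos, 58 to 49 in Zfp36 and 29 to 21 in Nfkbia. Searched on both strands, TGACG occurred in 11 of the 22 listed genes that had a promoter in the RefSeq table and in 17.8% of all 32851 promoters of the same length. The CArG box occurred in 1 of the 22, Zfp36, and in 1.47% of all promoters, and GGAAATTCC in 1, Ier3, and in 0.286%. TTCNNNGAA, the form bound by STAT factors, occurred in 2, Zfp36 and Socs3, and in 7.02%. A match is a description of the sequence and not a measured binding site.

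Fos, a subunit of the transcription factor AP-1, stood at 739 and 616 CPM at E16.5 and at 3358, 2368, 2355 and 2307 CPM at E18.5. All 4 later libraries lay far above the earlier pair, and E18.5 A was the highest (log2 difference 1.94 ± 0.724; edgeR, unadjusted p = 0.0141, adjusted p = 1). Its partners Jun and Junb followed the same order. Jun stood at 185 and 175 CPM and then at 405, 329, 413 and 421 CPM, and Junb at 1073 and 881 CPM and then at 2825, 1899, 2589 and 2772 CPM. Zfp36, which promotes decay of cytokine mRNAs (chromosome 7, 28376784 to 28380253, minus strand), stood at 276 and 242 CPM and then at 1608, 640, 914 and 888 CPM (log2 difference 1.97 ± 0.683; unadjusted p = 0.00895 in edgeR). Socs3, a feedback inhibitor of JAK and STAT signalling, stood at 117 and 79.9 CPM and then at 287, 333, 302 and 346 CPM. Btg2, an antiproliferative gene of the same response, stood at 408 and 471 CPM and then at 1129, 874, 1264 and 1305 CPM. Members with heat shock functions did not share this order: Hspa1b was separated below, at 1158 and 1116 CPM and then at 868, 845, 713 and 687 CPM, as was Hsph1, and Hspa1a overlapped.

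Nfkbia, the inhibitor that holds NF-kB in the cytoplasm (chromosome 12, 55489410 to 55492647, minus strand), is a target of both NF-kB and glucocorticoids. It stood at 530 and 442 CPM at E16.5 and at 985, 669, 1581 and 1599 CPM at E18.5 (log2 difference 1.31 ± 0.394; edgeR, unadjusted p = 0.00312, adjusted p = 1). Cebpd, another target of glucocorticoids, stood at 154 and 130 CPM and then at 178, 298, 369 and 388 CPM. Errfi1, an inhibitor of the EGF receptor on the same list, was separated below, at 144 and 148 CPM and then at 82.6, 90.8, 35.8 and 38.1 CPM. The glucocorticoid list thus held both directions, with 6 of 19 above (31.6%, against 7.51% of all genes) and 3 below (15.8%, against 12.6%). Without E18.5 A the numbers were 8 (42.1%, against 15.9%) and 3 (15.8%, against 18.1%).

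The remaining genes that the naming rule put highest have no list of their own. Tob1 (chromosome 11, 94211454 to 94215495, plus strand), an antiproliferative relative of Btg2 that recruits mRNA deadenylases, stood at 100 and 96.5 CPM at E16.5 and at 445, 224, 538 and 515 CPM at E18.5 (log2 difference 2.13 ± 0.641; edgeR, unadjusted p = 0.00323). Btg1, of the same family, stood at 590 and 557 CPM and then at 990, 668, 1257 and 1155 CPM. Emp2 (chromosome 16, 10281749 to 10313968, minus strand), a tetraspan membrane protein of epithelia, stood at 96 and 73 CPM and then at 374, 102, 491 and 500 CPM. Of the later libraries E18.5 B had the lowest Emp2 level and the least keratinocyte RNA. E18.5 A held 374 CPM with basal (0.152%) and suprabasal (0.0212%) keratinocyte shares below those of both E16.5 libraries. The part of keratinocyte RNA in the Emp2 levels was not tested. Slc48a1 (chromosome 15, 97778520 to 97792692, plus strand), a haem transporter, stood at 105 and 69.7 CPM and then at 951, 135, 260 and 215 CPM, and was highest in E18.5 A, the library with the erythroid share of 43.5%. Gid4 (chromosome 11, 60417145 to 60450927, plus strand), the substrate receptor of a ubiquitin ligase, stood at 30.5 and 32.5 CPM and then at 177, 61.6, 116 and 94.2 CPM.

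**Figure D3:**
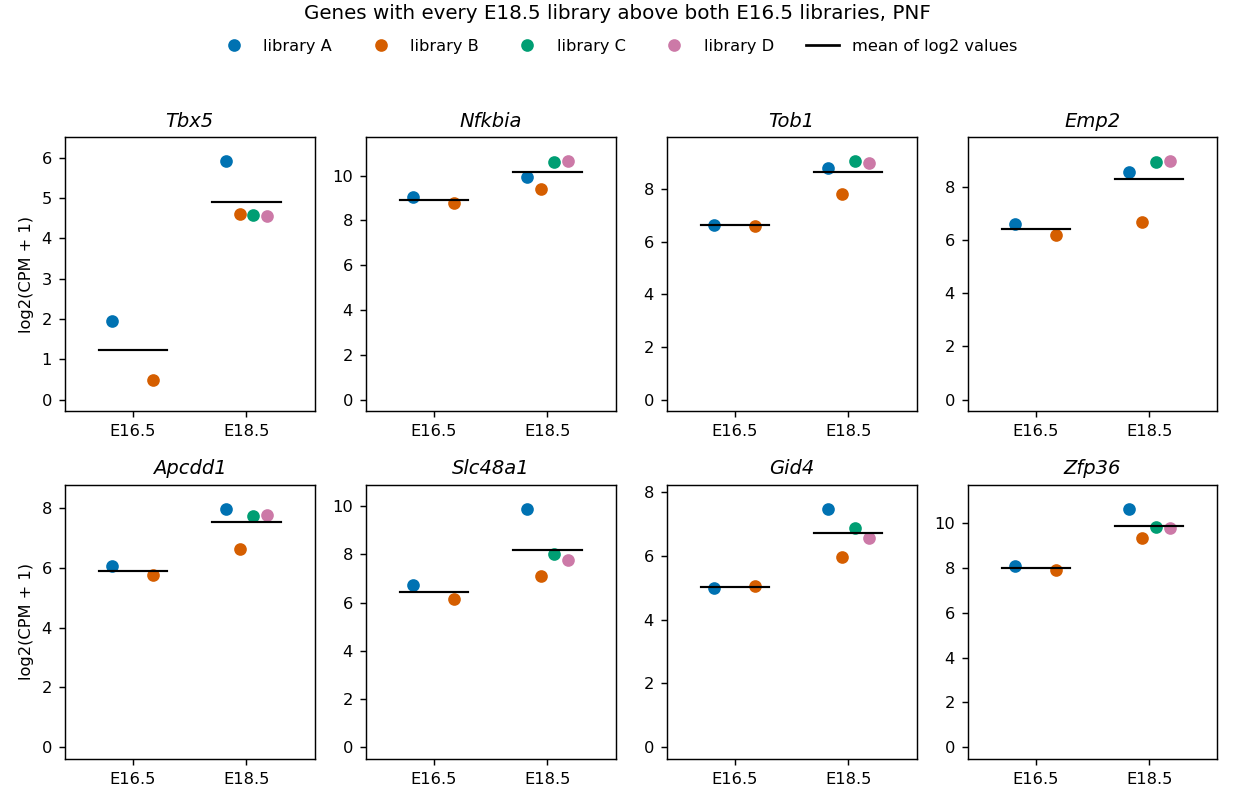
Levels of the 8 genes that the naming rule put highest, as log2(CPM + 1), 1 point per PNF library, with a bar at the mean of the log2 values. In each gene all 4 E18.5 libraries lie above both E16.5 libraries, and E18.5 B is the lowest of the later libraries in 7 of the 8, the exception being Tbx5.

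At the other end, 5 of the 8 genes that the naming rule put lowest at E18.5 are known from neurons. Neurod6 (chromosome 6, 55677822 to 55681263, minus strand), a bHLH factor of cortical neurons, stood at 98.1 and 73.1 CPM at E16.5 and had no count in any E18.5 library, which puts the later mean at least 915-fold lower against a floor of 3 counts over the group. Neurod2 (chromosome 11, 98325415 to 98329648, minus strand), its relative, stood at 37 and 25.9 CPM and then at 0, at least 336-fold lower. Igfbpl1 (chromosome 4, 45809468 to 45826923, minus strand), known from newborn neurons, stood at 29 and 26.3 CPM and then at 0, at least 295-fold lower. Fezf2 (chromosome 14, 12342094 to 12348189, minus strand), a factor of deep-layer cortical neurons, stood at 23.2 and 15.4 CPM and then at 0, at least 207-fold lower. Vip (chromosome 10, 5639218 to 5647617, plus strand), a neuropeptide, stood at 24.6 and 55.5 CPM and then at 0.599 CPM in E18.5 B and 0 in the other 3.

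Tubb3 and Stmn2, of the neuronal cytoskeleton, lay in the same order and were detected in all 6 libraries. Tubb3, the neuronal beta-tubulin, stood at 192 and 116 CPM at E16.5 and at 20.8, 4.05, 10 and 18.1 CPM at E18.5 (log2 difference -3.54 ± 1.44; edgeR, unadjusted p = 0.0228). Stmn2, a tubulin-binding protein of growth cones, stood at 30.9 and 42.5 CPM and then at 3.1, 3.45, 4.91 and 4.18 CPM. A list of 29 neuronal genes was drawn up after these values were seen, and 23 of them were tested. It summed to 895 and 715 CPM at E16.5 and to 118, 153, 223 and 227 CPM at E18.5. In PPF its sum was 314 to 361 CPM at E16.5 and 267 to 339 CPM at E18.5. Nefl, a neurofilament, stood in PNF at 37.8 and 35.1 CPM and then at 0, 12.9, 1.32 and 1.46 CPM. In the list of Schwann and neural genes 4 of 15 were below (26.7%, against 12.6% of all genes) and 2 above (13.3%, against 7.51%). Without E18.5 A 4 lay in each direction (26.7%, against 18.1% below and 15.9% above). Several of these genes encode factors of the brain cortex, which the label ventral skin does not include, and where their RNA came from was not tested.

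Single genes known from vessels, bone and blood also lay lower at E18.5. Ccl21a (chromosome 4, 42772860 to 42773993, minus strand), a chemokine of lymphatic endothelium, stood at 577 and 448 CPM at E16.5 and at 0, 0.3, 3.59 and 4.57 CPM at E18.5; it has near-identical copies, so its count is uncertain. Lyve1, a hyaluronan receptor of lymphatic vessels, stood at 89.1 and 67.4 CPM and then at 38.8, 0.599, 1.89 and 0.584 CPM. Cldn5, the tight junction claudin of endothelium, stood at 86.5 and 48.1 CPM and then at 21.5, 1.05, 0.189 and 0.681 CPM. In the endothelial list 5 of 15 were below (33.3%, against 12.6% of all genes) and 0 above (against 7.51%). Without E18.5 A the numbers were 10 (66.7%, against 18.1%) and 1 (6.67%, against 15.9%). Ibsp, the bone sialoprotein, stood at 112 and 157 CPM and then at 0, 9.74, 21.3 and 20.6 CPM (log2 difference -3.38 ± 1.30; edgeR, unadjusted p = 0.0176). In the tendon and cartilage list 4 of 19 were below (21.1%), namely Ibsp, Matn1, Sp7 and Bglap, and 0 above. Hbb-bh1, an embryonic beta-globin, stood at 9.31 and 10.7 CPM and then at 0.221 CPM in E18.5 A and 0 in the other 3, although E18.5 A held the most globin RNA. Hbb-y, a further embryonic beta-globin at higher levels, overlapped between the ages. It stood at 1257 and 849 CPM and then at 1399, 0.15, 0 and 23.8 CPM, and was highest in E18.5 A.

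Hspe1 and Nme1, the other lowest genes by the naming rule, are used by most cells, and Hspd1 and Nip7 are given beside them because their values were seen. None of the 4 was called by edgeR. Hspe1 (chromosome 1, 55088132 to 55091307, plus strand), the small mitochondrial chaperonin, stood at 954 and 1086 CPM at E16.5 and at 93.7, 508, 257 and 284 CPM at E18.5 (log2 difference -1.84 ± 0.529; edgeR, unadjusted p = 0.00227, adjusted p = 1). Hspd1, its large partner and neighbour on the chromosome, stood at 775 and 876 CPM and then at 285, 456, 357 and 371 CPM. The pair is transcribed from a shared region in opposite directions, and both lay lower in all 4 later libraries. Nme1 (chromosome 11, 93956979 to 93968521, minus strand), a nucleoside diphosphate kinase, stood at 538 and 411 CPM and then at 118, 288, 166 and 188 CPM. Nip7, a factor of ribosome assembly, stood at 62.5 and 58.9 CPM and then at 7.09, 31.8, 16.2 and 17.8 CPM. Each of these 4 genes was lowest in E18.5 A and highest, among the later libraries, in E18.5 B.

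**Figure D4:**
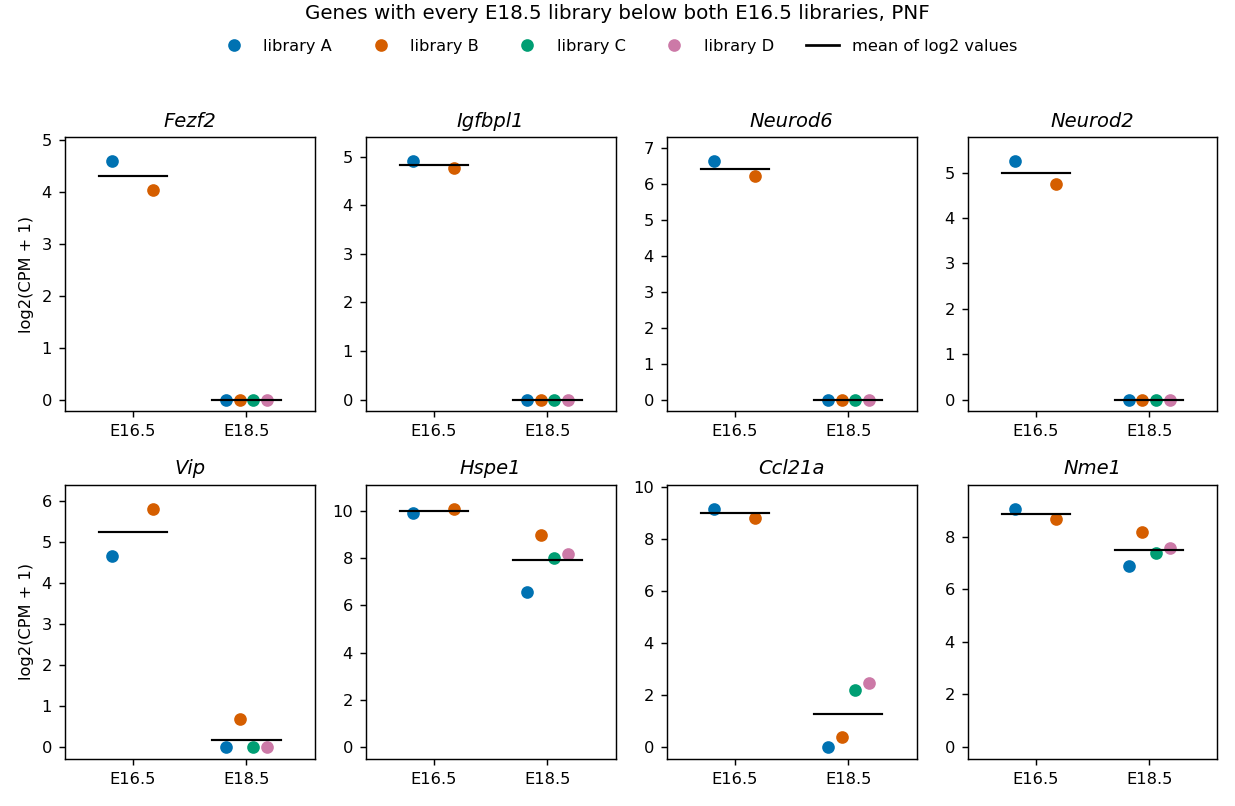
Levels of the 8 genes that the naming rule put lowest, as log2(CPM + 1), 1 point per PNF library, with a bar at the mean of the log2 values. Fezf2, Igfbpl1, Neurod6 and Neurod2 have no count in any E18.5 library, while Hspe1 and Nme1 are detected in all of them.

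Imprinted growth genes had 4 of 21 tested members below (19%, against 12.6% of all genes) and 0 above (against 7.51%). Without E18.5 A 5 were below (23.8%, against 18.1%) and 1 above (4.76%, against 15.9%). Phlda2, a maternally expressed brake on placental and fetal growth, stood at 30.2 and 20.4 CPM at E16.5 and at 10.4, 7.19, 4.06 and 3.89 CPM at E18.5. Asb4, a ubiquitin ligase adaptor, stood at 119 and 130 CPM and then at 0.886, 90.5, 4.82 and 10.2 CPM, so that E18.5 B lay closest to the earlier pair. Of 24 complement, chemokine and acute phase genes 4 were below (16.7%) and 1 above (4.17%), and without E18.5 A 8 (33.3%) and 6 (25%). Cxcl13, a chemokine that attracts B cells, stood at 20.4 and 50.6 CPM and then at 0, 3, 1.79 and 1.56 CPM (log2 difference -4.45 ± 1.60; edgeR, unadjusted p = 0.0112). Ptx3, a secreted pattern recognition protein that also binds matrix, stood at 117 and 103 CPM and then at 31.4, 56.5, 11.7 and 20.5 CPM.

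Mki67, a marker of dividing cells, and Prrx1 overlapped between the ages. Mki67 stood at 146 and 188 CPM at E16.5 and at 109, 132, 136 and 175 CPM at E18.5 (log2 difference -0.27 ± 1.00). Of 38 cell cycle genes 5 were above (13.2%, against 7.51% of all genes), namely Mcm4, Mcm5, E2f1, Ccna2 and Rrm1. The 1 cell cycle gene below was Ccnd2 (2.63%, against 12.6%). Without E18.5 A 12 were above (31.6%, against 15.9% of all genes) and 2 below (5.26%). Rrm1, a subunit of the enzyme that makes deoxynucleotides, stood at 358 and 283 CPM and then at 392, 435, 484 and 573 CPM. Ccnd1, Bub1b and Prc1, also named from this list by p, overlapped between the ages. Their means were 114, 17.1 and 3.14 CPM at E16.5 and 256, 44.1 and 12.8 CPM at E18.5. Prrx1 (chromosome 1, 163245119 to 163313710, minus strand) stood at 32.9 and 42 CPM and then at 104, 46.7, 35.1 and 45.9 CPM. Its level in E18.5 A lay above those of both PPF E18.5 libraries, 97.4 and 85.4 CPM, while the other 5 PNF libraries lay between 32.9 and 46.7 CPM. At E16.5 the lineages overlapped, with Prrx1 at 41.8 and 51.7 CPM in PPF.

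Whether these differences were particular to PNF was asked by testing the difference between the E16.5 to E18.5 difference in PNF and that in PPF. In PPF the sex-linked genes split by age. Xist stood there at 0.828 and 17.4 CPM at E16.5 and at 752 and 864 CPM at E18.5. Ddx3y stood at 99 and 28.1 CPM and then at 0 in both libraries. Age and this sex-linked split thus cannot be told apart in PPF. Cartilage RNA was uneven in PPF E16.5 A and B, with Matn1 at 0 and 5214 CPM and Acan at 13 and 1625 CPM. edgeR's quasi-likelihood test called 1 of 15557 genes (0.00643% with the PNF difference above that of PPF, and 0% below). The gene was Qpctl (chromosome 7, 19139702 to 19149291, minus strand), a Golgi enzyme that modifies protein ends. It stood at 41.1 and 26.5 CPM in PNF E16.5 and at 22.1, 22.2, 36.5 and 29.2 CPM in PNF E18.5, and at 35.6 and 29.5 CPM in PPF E16.5 with no count in either PPF E18.5 library (adjusted p = 0.0297 in edgeR; fitted log2 difference 10.79, a value that depends on the prior count). Its PPF level was thus at least 147-fold lower at E18.5, while PNF overlapped. The call was kept in 10 of 23 alternatives and lost in 13, with adjusted p from 3.50e-06 in DESeq2 to 0.702 without PNF E16.5 B. It was lost on leaving out any 1 of the 10 PNF and PPF libraries other than PNF E18.5 A, and with upper quartile scaling (adjusted p = 0.078). DESeq2 called 251 genes above (1.61%) and 12 below (0.0771%), and limma voom 29 (0.186%) and 48 (0.309%). Of the 780 genes with a positive difference at an unadjusted p under 0.05 in edgeR, 589 had no count in either PPF E18.5 library, where 12039 and 11892 genes had a count, so most of these differences rest on genes listed at 0 there. Of all 15557 tested genes, 3258 had no count in either PPF E18.5 library. In total 1031 genes had an unadjusted p under 0.05 in edgeR (6.63%).

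Of the other genes named for this test, Ly6a, which encodes the surface antigen Sca-1, stood at 94.2 and 119 CPM in PNF E16.5 and at 77.5, 232, 212 and 260 CPM in PNF E18.5, and at 573 and 359 CPM in PPF E16.5 with no count in PPF E18.5 (adjusted p = 0.0662 in edgeR). Slc38a2, an amino acid transporter, stood at 513 and 572 CPM and then at 947, 396, 601 and 569 CPM in PNF, and at 177 and 502 CPM and then at 2444 and 2388 CPM in PPF (log2 difference of differences -2.62 ± 0.766; adjusted p = 0.523 in edgeR). Trim44, a ubiquitin pathway protein, showed the same shape, with overlap in PNF and 43.3 and 71.9 CPM followed by 332 and 347 CPM in PPF (-2.70 ± 0.807). Mn1, a transcriptional coregulator, stood at 58.7 and 54 CPM and then between 15.5 and 34 CPM in PNF, and at 28.8 and 35.9 CPM and then at 95.9 and 88.5 CPM in PPF, so the groups were separated in opposite directions (-2.89 ± 0.909; adjusted p = 0.663 in edgeR and 0.00397 in DESeq2). These differences did not pass the main test.

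Of the 1169 genes separated above in PNF, 768 had a higher mean at E18.5 in PPF as well (65.7%, against 43.2% of all tested genes) and 382 a lower one (32.7%). In 442 (37.8%) both PPF E18.5 libraries lay above both PPF E16.5 libraries, as they did in 18.3% of all genes, and in 162 (13.9%) both lay below, against 25.1%. Of the 1967 genes separated below in PNF, 1298 had a lower PPF mean (66%, against 49.3%). Osr2 stood at 217 and 170 CPM in PPF E16.5 and at 721 and 662 CPM in PPF E18.5, with a difference of differences of -0.20 ± 0.86. Apcdd1 stood at 107 and 113 CPM and then at 421 and 483 CPM in PPF (-0.32 ± 0.745), and Gli1 at 48.9 and 46.7 CPM and then at 320 and 372 CPM (-1.25 ± 1.35). Col3a1 stood at 1154 and 1576 CPM and then at 5651 and 6907 CPM (-0.21 ± 1.60), and Igfbp3 at 212 and 321 CPM and then at 1604 and 1656 CPM. Tbx5 was less clear, at 8.28 and 27 CPM and then at 82.2 and 19.5 CPM in PPF, where the ages overlapped (2.74 ± 1.24; edgeR, unadjusted p = 0.0384, adjusted p = 0.718). Fos stood at 1380 and 1211 CPM and then at 2196 and 2205 CPM (1.17 ± 1.02). Slc48a1, among the 8 highest genes in PNF, had the lower mean at E18.5 in PPF, at 212 and 129 CPM and then at 154 and 81.3 CPM (2.69 ± 1.03), and Lox stood at 406 and 562 CPM and then at 441 and 310 CPM. Cebpd lay the other way in PPF, at 195 and 169 CPM and then at 69.5 and 105 CPM (2.18 ± 0.711; edgeR, unadjusted p = 0.0059, adjusted p = 0.673). Id2 also lay in opposite orders, at 1132 and 1283 CPM and then at 2184 and 1922 CPM in PPF (-1.49 ± 0.725). Among lower genes, Hspe1 stood at 815 and 739 CPM and then at 385 and 408 CPM in PPF, and Nme1 at 618 and 438 CPM and then at 141 and 144 CPM. The standard errors leave room for differences of several fold between the lineages in either direction.

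**Figure D5:**
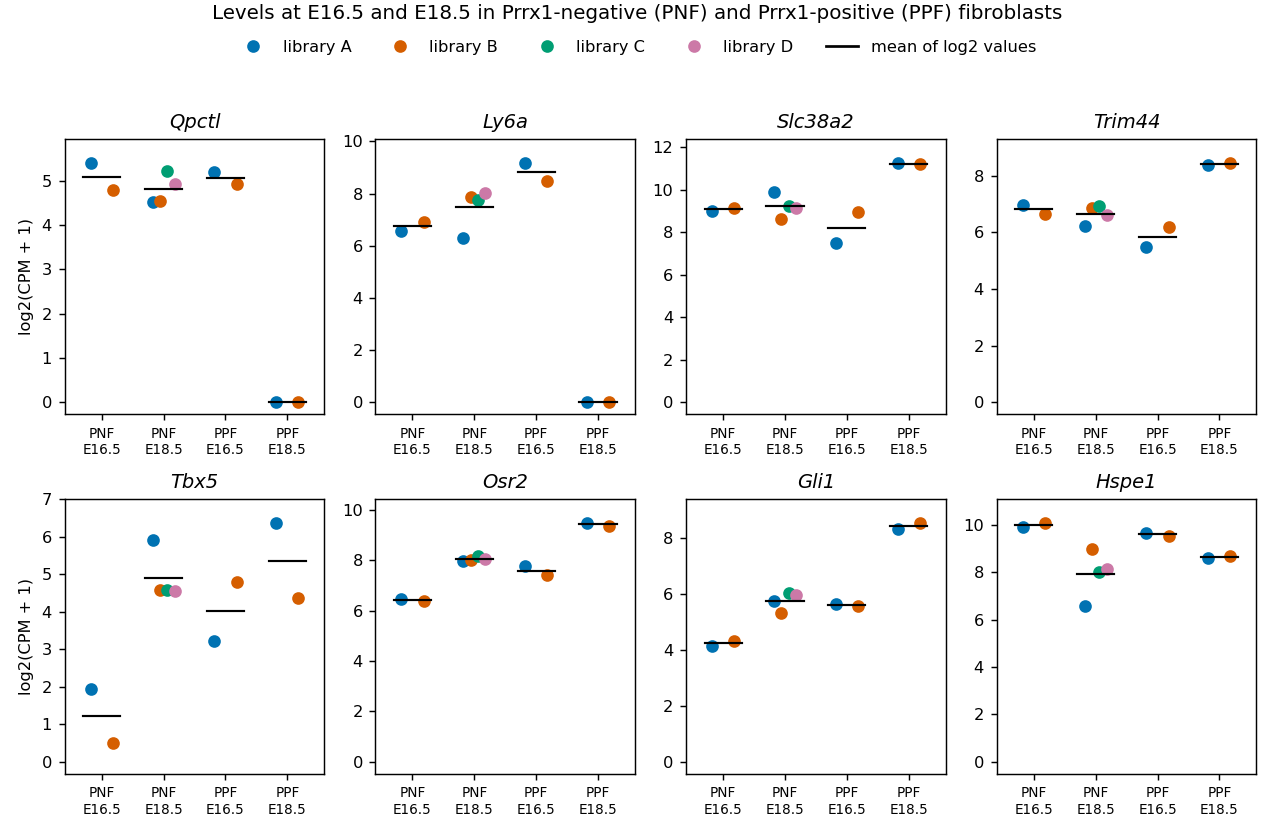
Levels of 8 genes as log2(CPM + 1) in PNF and PPF at both ages, 1 point per library, with a bar at the mean of the log2 values. Qpctl and Ly6a have no count in PPF E18.5, Slc38a2 and Trim44 are separated in PPF and overlap in PNF, and Osr2, Gli1 and Hspe1 lie in the same order in both lineages.

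Levels after birth were read in the PNF libraries A to D of P1. Tbx5 stood there at 84.7, 19, 94.2 and 78.3 CPM, in each case above both E16.5 libraries. Zfp36 stood at 2948, 956, 2900 and 2821 CPM and Nfkbia at 3280, 2486, 3267 and 2700 CPM, the latter above every fetal PNF library. Apcdd1 stood at 264, 74.2, 91.7 and 96.1 CPM, and Gli1 at 68.3, 50, 35.3 and 74.8 CPM, both overlapping the E18.5 range and above E16.5. Crabp1, already lower at E18.5, stood at 43.9, 113, 317 and 198 CPM, below every fetal PNF library. Neurod6 and Neurod2 had no count in any P1 library. Hspe1 stood at 717, 284, 421 and 290 CPM, all below E16.5. These levels were not tested against the fetal ones.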

How the data were processed

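RNA was read in 24 bulk libraries of sorted ventral skin fibroblasts in 8 groups (2 lineages at 4 ages), mapped to groups by their titles. The values are whole-number read counts per Ensembl transcript as deposited by the authors; the tables' own naming points to featureCounts, the submitters' processing notes name mm10, and the aligner, strand setting and treatment of reads that overlap several transcripts are not given in the sources used here. The deposited TPM values, made by the authors from those counts and transcript lengths, were used only as a check.

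Counts of the 82916 of 95883 transcripts found in GENCODE vM21 were summed to 34002 genes, and 5.257% of counts fell in transcripts not found. Genes were filtered with filterByExpr (15557 left), scaled by TMM (factors 0.654 to 1.3) and fitted with edgeR 4.0.16 (R 4.3.3) by quasi-likelihood over all 8 groups, with 16 residual degrees of freedom; the biological coefficient of variation shared by all genes was 1.029. Tests are two-sided, with Benjamini-Hochberg adjustment over all tested genes and a threshold of 0.05; SE is the log2 difference divided by the root of F. Single shares were compared by exact permutation of 2 against 4 libraries. DESeq2 1.42.0, limma 3.58.1 (voom with sample quality weights), other scalings, filters and sample sets, and leaving out each library, were alternatives. The fit was tested on simulated data.

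Members and lists were chosen with earlier results of these data known, and no list is independent evidence. The naming rule takes up to 12 called genes per direction by size, filled to 8 by the smallest p among separated genes whose higher group averages 10 CPM or more; up to 4 genes per list by p; up to 6 per direction for the difference between lineages; and Prrx1. Predicted, pseudogene, antisense, small RNA and sex-linked names are left out of the rules by size and by lineage. Other genes are named to describe composition or because their values were seen: Acan, Matn1, Lum, Pdgfra, Jun, Btg2, Hspa1b, Hsph1, Hspa1a, Lamc1, Nkd1, Dkk3, Btg1, Nip7, Hspd1, Igf2, Mki67, Hbb-bh1, Hbb-y and those of the closing section. Library letters were shared by A and B of both ages, and were not taken to pair libraries. The deviations of same-letter libraries from their group means correlated at -0.007 and -0.013. With 2 libraries at E16.5 the deviations of A and B mirror each other, so this check cannot settle whether the letters pair libraries. Promoters are from RefSeq (GRCm38.p6). Not every list member is reported by name here.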

Additional observations from a re-analysis of the deposited data

Results flagged for a closer look

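Among 72 levels and shares checked over the 4 E18.5 libraries, 14 had 1 library far from the other 3 by Dixon's ratio (chance flags about 1 in 20). In E18.5 A, the levels were 59.1 CPM for Tbx5 (22.6 to 23.1 in the others), 659 for Irs2 (220 to 242), 3358 for Fos (2307 to 2368), 951 for Slc48a1 (135 to 260), 21.5 for Cldn5 (0.189 to 1.05), 38.8 for Lyve1 (0.584 to 1.89) and 104 for Prrx1 (35.1 to 46.7). Nid1 was low there, at 693 CPM (1069 to 1143). Its erythroid share was 43.5% (0.229% to 2.95%), its macrophage and dendritic cell share 0.327% (0.0121% to 0.0276%) and its mesothelial share 0.606% (0.00611% to 0.0278%). In E18.5 B, Ccn2 stood at 601 CPM (106 to 172), Nefl, a neurofilament, at 12.9 (0 to 1.46) and Asb4 at 90.5 (0.886 to 10.2).

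Qpctl differed between lineages: the PNF difference exceeded that of PPF by a fitted 10.79 on the log2 scale (edgeR, adjusted p = 0.0297), and it rests on 2 PPF E18.5 libraries with no count. The call was lost in 13 of 23 alternatives, 9 of which leave out 1 library.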

How the results depend on the processing

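Between the ages, edgeR called 0 genes under all 18 of its alternatives (smallest adjusted p 0.0647), DESeq2 11 and limma voom 2349. Of the members of the lists, DESeq2 called 2 and limma voom 204, against 0 in edgeR. Of the genes named, 62 were followed in every setting and kept the direction of their log2 difference in all 1240 values. Many of them were chosen by p or by separation in these same libraries, and the settings reuse the same counts. Their direction thus had little room to change, and its constancy is not independent support. Of the 62, limma voom called 50 and DESeq2 1.

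The difference between lineages had 1 call in the main test, 263 in DESeq2, 77 in limma voom, 14 without a filter on low counts, 5 in the fit of the groups compared and in that of the 4 fetal groups, and 55 without the 2 PNF libraries labelled A at E18.5 and P30. It had 0 with upper quartile scaling, with libraries A and B only, and with C and D (and E and F) summed. Leaving out 1 library gave 0 to 5 calls, with 5 without PNF E18.5 A, 3 without PPF E18.5 B and 0 without any other. With library letters as a replicate block it had 0 calls, as did the ages. Whether the letters pair libraries is not known.

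Separated genes, in an alternative added after seeing the data, came to 1370 to 2468 above and 2270 to 3205 below when 1 library was left out; fewer libraries make separation easier. The numbers above grew by over 1.5 times without E16.5 A (1855), E16.5 B (1922), E18.5 A (2468) or E18.5 B (2094), and those below without E16.5 A (3202), E16.5 B (3056) or E18.5 B (3205). The share of counts in other cell types differed by 7.84 percentage points, by 0.455 with erythroid genes out of the total, and by -2.59 to 12.4 when 1 library was left out; it reversed to -2.59 without E18.5 A. The erythroid share differed by -2.63, without E18.5 A, to 11.8. The median log2 difference of all genes was 0.08, 0.25 with RLE and 0.00 with upper quartile scaling. The medians of the IGF list and of the Schwann and neural list had the other sign in 7 and 14 of 20 alternatives. Levels under the floor of 3 counts, 0.283 to 0.664 CPM, were not detectable at this depth.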

Other observations

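Gas6, a ligand of the TAM receptors that clear dying cells, lay in opposite orders in the lineages; it was picked after its values were seen. It stood at 34.1 and 30.7 CPM in PNF E16.5 and at 243, 128, 134 and 182 CPM in PNF E18.5, and at 89 and 89.7 CPM and then at 3.15 and 2.19 CPM in PPF. Its difference of differences was 7.46 ± 1.82 on the log2 scale (adjusted p = 0.292 in edgeR, 0.000651 in DESeq2 and 0.0489 in limma voom). Thbs4, a thrombospondin of tendon and fascia, stood at 28.7 and 35.7 CPM and then at 34.3, 382, 121 and 116 CPM in PNF, and at 81.8 and 74.9 CPM in PPF E16.5 with no count in PPF E18.5 (adjusted p = 0.0809 in edgeR).

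Mrgprb1, of a receptor family known from mast cells and sensory neurons, had no count at E16.5 and stood at 96.3, 0, 18.3 and 29.4 CPM in E18.5 A to D (DESeq2, adjusted p = 9.71e-18; not called in edgeR, and overlapping through E18.5 B), while the mast cell list had 1 of 10 members above (10%) and 2 below (20%). Of 22 interferon and antigen presentation genes 4 were separated above (18.2%), namely Irf1, Ifitm1, Ifitm3 and Ifi27l2a, and 0 below. Without E18.5 A 5 lay above (22.7%) and 0 below. Over all tested genes the shares were 7.51% above and 12.6% below, and 15.9% and 18.1% without E18.5 A.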
